A study of Homo sapiens with 4 samples.

Results

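PRR16 and RP11-446N19.1 are a pair of long human genes that held a smaller share of the FLASH-seq reads in cells with tagged CFAP20 than in cells without it. They are 2 of the 9667 genes that appear in the deposited coverage tables, and they were selected on that lower share by their gene names. The reads were followed along each gene from its start to 100 kb downstream, in bins of 200 bp. PRR16 (ENSG00000184838) encodes a proline-rich protein also called Largen, which raises cell size in human cells. RP11-446N19.1 (ENSG00000272369) is a long non-coding RNA named after a genomic clone, and no role is given for it here.

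The series asked whether CFAP20, a conserved protein of cilia and flagella, also binds RNA. The tagged-CFAP20 group was RPE1 cells with an inducible Cas9 (iCas9), p53 and the puromycin resistance gene knocked out (p53/puro-dKO) and CFAP20 knocked out, in which a biotin-tagged CFAP20 (FLASH-BIO-CFAP20) was expressed. The CFAP20-KO group was the same knockout line without the tagged protein and served as the negative control, so both groups carried every knockout and differed in the tagged protein. RPE1 is an immortalised human line from retinal pigment epithelium, and each group had 2 libraries. Neither the promoter of the tagged protein nor whether the line is 1 clone is stated, nor that replicates were separate cultures, so p-values measure the spread between libraries, which may be technical.

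FLASH-seq fixes protein to nearby RNA with ultraviolet light, pulls the biotin-tagged protein out on streptavidin beads, shortens its RNA with RNase I and sequences what is left. Without the tag, reads come from RNA that stays on the beads. A long gene is mostly intron, and intron sequence is found mainly in nuclear RNA that has not yet been spliced. The place of reads along such a gene therefore shows which stretch of the primary transcript was recovered. In lysates of many cells, fewer cells with a transcript and less RNA per cell cannot be told apart.

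Each library's coverage rose in steps of 1 fixed value, and a step is called a read overlap, meaning 1 read that covers 1 bin. The gene bodies held 165189 and 134891 overlaps in tagged-CFAP20 libraries and 9146 and 3908 in CFAP20-KO libraries. One overlap was worth 12.9 and 13.9 units of signal with the tagged protein and 83 and 276.88 units in CFAP20-KO. CFAP20 coding bins, seen through the window of a neighbouring gene, held 36 and 38 overlaps with the tagged protein and 0 and 0 in CFAP20-KO. At an equal share of the gene overlaps the CFAP20-KO libraries would have held 2.26 and 0.96, so the counts of 0 do not check the labels. Of the genes that mark retinal pigment epithelium, 6 of 12 were in the tables and they summed to 65 and 61 overlaps in tagged-CFAP20 and 5 and 0 in CFAP20-KO. Most of these lay on OTX2, with 26 and 34 in tagged-CFAP20 and 0 and 0 in CFAP20-KO, and MITF, with 31 and 21 against 5 and 0. RPE65, the isomerase of the visual cycle, had 4 and 2 overlaps in tagged-CFAP20 and 0 and 0 in CFAP20-KO. LRAT had 3 and 4 against 0 and 0, RLBP1 had 1 overlap in 1 library and TTR had 0 in every library. Of the mesenchymal and epithelial genes of cultured RPE1 cells 3 of 11 were in the tables, with 476 and 326 overlaps in tagged-CFAP20 and 52 and 22 in CFAP20-KO. Of 4 neuron markers SNAP25 was in the tables, with 11 and 15 overlaps in tagged-CFAP20 and 0 and 0 in CFAP20-KO. Blood markers were not in the tables, and the liver markers ALB and SERPINA1 were at 0 everywhere.

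PRR16 starts at position 120464278 of chromosome 5 (hg38, plus strand) and is 223055 bp long, so the measured 100 kb are 44.8% of it. In this stretch the first exon ends 0.4 kb from the start and nearly everything after it is intron. With bins taken as centred on their label, the end of the first exon with the intron that follows lay in the bin with most tagged-CFAP20 reads of the gene. It is shown from the hg38 genome, 5′ to 3′ on the plus strand, over chr5:120464616-120464777, where capitals mark the last 30 bases of the exon.
PRR16 exon end: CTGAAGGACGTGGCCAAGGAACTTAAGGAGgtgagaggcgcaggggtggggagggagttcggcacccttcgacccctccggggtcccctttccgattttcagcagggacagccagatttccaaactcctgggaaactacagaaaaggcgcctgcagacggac

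RP11-446N19.1 spans chr12:46537502-46652550 on the plus strand of hg38, 115049 bp, of which 86.9% was measured. It lies whole within SLC38A4-AS1, a longer lncRNA on the same strand that runs over chr12:46383433-46876784 and has no exon in the measured 100 kb. Coverage in its introns cannot be told apart from coverage of SLC38A4-AS1. The olfactory receptor pseudogene OR7A19P lies inside it at chr12:46592573-46593305. The bins shown next are the 30.6 kb bin, where both CFAP20-KO libraries and no tagged-CFAP20 library had a read (chr12:46568002-46568201), and the 78.4 kb bin with most tagged-CFAP20 reads (chr12:46615802-46616001). Both are intronic, in hg38, 5′ to 3′ on the plus strand.
RP11-446N19.1 30.6 kb: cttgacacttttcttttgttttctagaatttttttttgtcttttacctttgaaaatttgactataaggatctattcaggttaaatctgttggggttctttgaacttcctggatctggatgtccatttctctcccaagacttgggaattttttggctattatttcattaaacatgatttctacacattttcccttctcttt
RP11-446N19.1 78.4 kb: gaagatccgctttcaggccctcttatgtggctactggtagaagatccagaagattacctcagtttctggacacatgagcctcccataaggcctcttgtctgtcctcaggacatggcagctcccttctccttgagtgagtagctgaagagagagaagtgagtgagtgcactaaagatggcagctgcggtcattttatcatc
In the 30.6 kb and 78.4 kb bins 100% of the 32-base words occurred once in the genome. The GC content was 32% in the 30.6 kb bin and 49.5% in the 78.4 kb bin.

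PRR16 held 247 and 213 read overlaps in tagged-CFAP20 and 44 and 19 in CFAP20-KO. As a share of all gene overlaps this was 0.150% and 0.158% in tagged-CFAP20, with 95% intervals of 0.128 to 0.173% and 0.134 to 0.185%. In CFAP20-KO it was 0.481% and 0.486%, with intervals of 0.329 to 0.680% and 0.264 to 0.819%. Both CFAP20-KO shares lay above both tagged-CFAP20 shares and their intervals did not touch. The share averaged 0.154% ± 0.0059 in tagged-CFAP20 and 0.484% ± 0.0036 in CFAP20-KO (SD, n = 2 each). The ratio of the means was 0.318, a 3.15-fold lower share with the tagged protein. The gene was selected on this difference, which is given as a description with no test. Intervals here are exact binomial (Clopper-Pearson), with overlaps divided by the 1.39 bins that a read covered on average, and they cover counting error only.

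RP11-446N19.1 held 77 and 62 overlaps in tagged-CFAP20 and 26 and 10 in CFAP20-KO. Its share was 0.0466% and 0.0460% in tagged-CFAP20 and 0.284% and 0.256% in CFAP20-KO. The intervals were 0.0352 to 0.0606% and 0.0335 to 0.0616% in tagged-CFAP20, and 0.171 to 0.445% and 0.105 to 0.521% in CFAP20-KO, again without contact between the groups. The ratio of mean shares was 0.171, a 5.83-fold lower share with the tagged protein, on which the gene was selected.

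**Figure D1:**
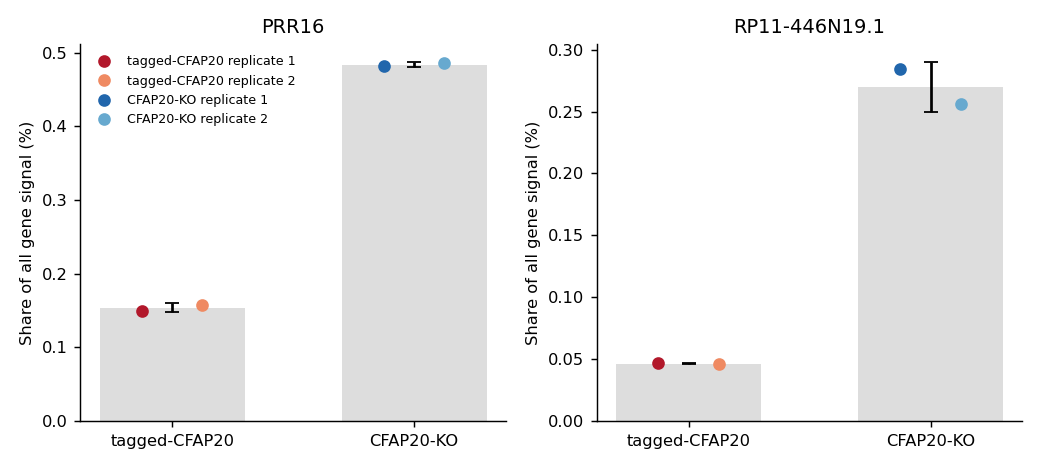
Share of all gene read overlaps (y axis, percent) that lay on PRR16 (left panel) and RP11-446N19.1 (right panel) in tagged-CFAP20 and CFAP20-KO; points are libraries, bars the mean and error bars the SD (n = 2). PRR16 sat at 0.150% and 0.158% in tagged-CFAP20 and at 0.481% and 0.486% in CFAP20-KO, and RP11-446N19.1 at 0.0466% and 0.0460% against 0.284% and 0.256%.

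The signal as the authors scaled it was also lower for both genes with the tagged protein. PRR16 had 3175 and 2968 signal units in tagged-CFAP20 and 3652 and 5261 in CFAP20-KO, a log2 change of -0.51 (SE 0.22). Without CFAP20-KO replicate 1 it was -0.78, and without replicate 2 it was -0.25. RP11-446N19.1 had 989.7 and 863.9 units in tagged-CFAP20 and 2158 and 2769 in CFAP20-KO, a log2 change of -1.39 (SE 0.24). Over the 4461 genes tested the median log2 change was 2.10, and limma called 37.6% of genes higher and 0.0672% lower with the tagged protein at an adjusted p under 0.05. Of the 1678 called higher, 1589 were at 0 in both CFAP20-KO libraries. Among the 304 genes with a mean signal of at least 1000 units, a limit chosen after seeing the data, 24% were called higher and 0% lower (1 gene was lower at an unadjusted p under 0.05). limma called 0 genes higher without tagged-CFAP20 replicate 1 and 0 without replicate 2 (23 and 40 at an unadjusted p under 0.05), against 3256 without CFAP20-KO replicate 1 and 3049 without replicate 2. With every library scaled to the same window total the log2 changes became -1.65 for PRR16 and -2.52 for RP11-446N19.1. The median over all genes moved by -0.53. Scaling moves genes with many reads in every library almost alike, while a gene at 0 in a library stays at 0 there. The move of the pair is therefore not particular to it, and the median is not a like measure beside it.

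Among the 5 genes whose share over the 4 libraries ran most like that of PRR16 were EFEMP1, PRSS23, PDLIM5 and DANT2, with ratios of tagged-CFAP20 to CFAP20-KO share between 0.285 (PRSS23) and 0.446 (DANT2). Likeness was the Euclidean distance between centred log2 shares over 4 libraries, among the 34 genes with at least 10 overlaps in every library. EFEMP1, which encodes an extracellular matrix glycoprotein, was nearest at a distance of 0.312. It had shares of 0.0896% and 0.128% in tagged-CFAP20 and 0.328% and 0.333% in CFAP20-KO. PRR16 itself was nearest to RP11-446N19.1, at a distance of 0.899, and PRSS23, EFEMP1 and PDLIM5 were also among its 5 nearest genes. The limit of 10 overlaps is a share of 0.256% in CFAP20-KO replicate 2, so genes entered this comparison through high CFAP20-KO shares, and likeness used the shares on which the pair was selected. Of the named genes PRSS23 is the shortest, at 10994 bp.

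Along PRR16 the reads of tagged-CFAP20 cells were most frequent next to the gene start and were present throughout the 100 kb. The first 10 kb held 46 and 49 overlaps in tagged-CFAP20, which were 18.6% and 23% of the overlaps of the gene. In CFAP20-KO the same stretch held 5 and 0 overlaps, 11.4% and 0%. The intervals were 13.2 to 25.1% and 16.6 to 30.5% in tagged-CFAP20, and 2.90 to 27.7% and 0 to 23.6% in CFAP20-KO, so they overlap between the groups.

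From 20 to 30 kb the order was the other way round. This stretch held 10 and 8 overlaps in tagged-CFAP20, or 4.05% and 3.76% of the gene's overlaps, the lowest segment of the first 90 kb in both libraries. It held 6 and 8 overlaps in CFAP20-KO, or 13.6% and 42.1%. The interval of CFAP20-KO replicate 2, 16.9 to 70.8%, lay above both tagged-CFAP20 intervals, 1.67 to 8.09% and 1.36 to 8.11%, and that of CFAP20-KO replicate 1, 4.10 to 30.5%, did not. The segment was picked after the values were seen and its difference has no test. From 60 to 90 kb the tagged-CFAP20 libraries had 32.4% and 25.8% of the overlaps and the CFAP20-KO libraries 40.9% and 26.3%, with overlapping groups.

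**Figure D2:**
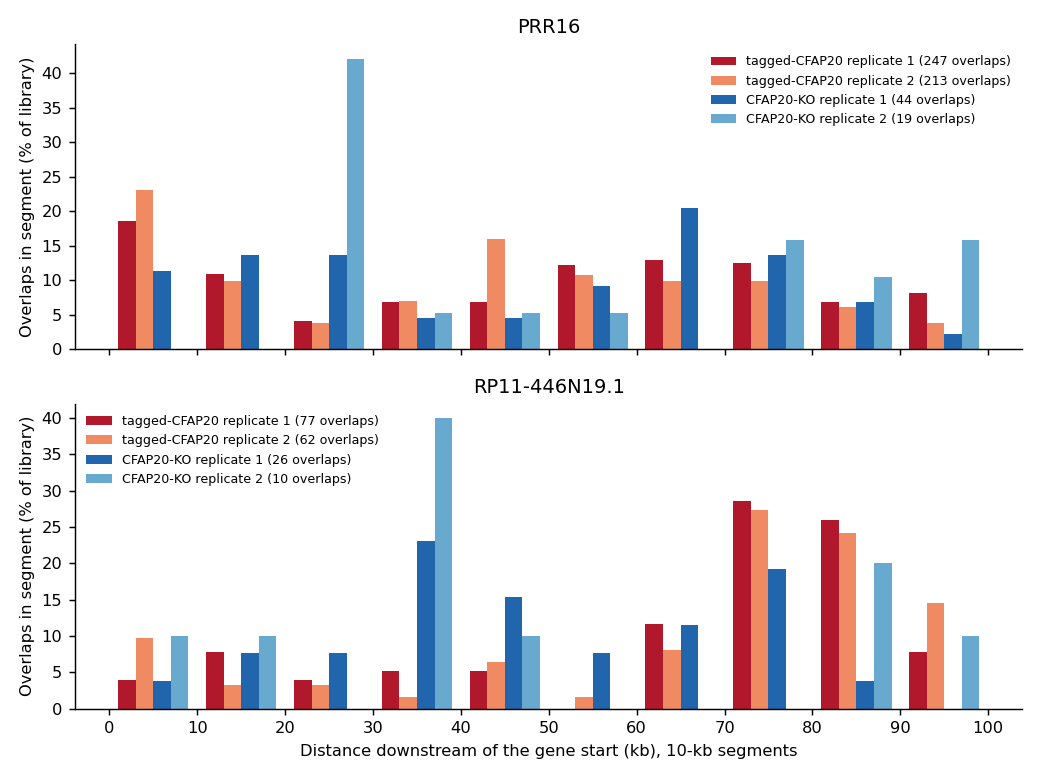
Read overlaps in 10-kb segments downstream of the gene start (x axis, kb) as a percent of each library's overlaps on the gene (y axis), for PRR16 (top) and RP11-446N19.1 (bottom). In PRR16 the tagged-CFAP20 libraries were highest in the first 10 kb (18.6% and 23%), and in RP11-446N19.1 between 70 and 90 kb.

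The single bins with most reads of PRR16 were at its start. The bin at 0.4 kb, which spans the end of the first exon printed above, held 8 and 6 overlaps in tagged-CFAP20 and 1 and 0 in CFAP20-KO. The bin at 0.2 kb, all exon, held 7 and 3 in tagged-CFAP20 and 1 and 0 in CFAP20-KO. No other bin of PRR16 held more than 5 overlaps over the 2 tagged-CFAP20 libraries together. The GC content of these bins was 58% (0.4 kb) and 68% (0.2 kb), against a mean of 35.6% over the measured bins.

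The first 1 kb held 21 and 11 overlaps of PRR16 in tagged-CFAP20, or 8.50% and 5.16%, and 3 and 0 in CFAP20-KO, or 6.82% and 0%. The groups overlapped, and the means of 6.83% in tagged-CFAP20 and 3.41% in CFAP20-KO differed by 3.42 percentage points (exact two-sided permutation p = 0.667). The smallest p that 2 against 2 libraries allow is 0.333. Without CFAP20-KO replicate 2 the difference was 0.015 points. Over the 34 genes the first 1 kb share was higher in both tagged-CFAP20 libraries than in both CFAP20-KO libraries in 50% of genes, and PRR16 was not among them.

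Bins with an annotated PRR16 exon, 7 in number, made up 1.40% of the measured bins. They held 19 and 11 overlaps in tagged-CFAP20, 7.69% and 5.16% of the gene's overlaps, and 2 and 0 in CFAP20-KO, 4.55% and 0%. The groups did not overlap (difference of means 4.16 points, exact permutation p = 0.333, the smallest this design allows), as in 35.3% of the 34 genes. With the rule that at least 50% of a bin must be exonic the difference was 1.19 points and the groups overlapped (exact permutation p = 0.667). Under the main rule the difference was 1.88 points without CFAP20-KO replicate 2. With bins starting at their label, not centred on it, the difference was 2.67 points (exact permutation p = 0.333). Bins that touch the first exon held 15 and 9 of these overlaps in tagged-CFAP20, and 2 and 0 in CFAP20-KO. Of these, 8 and 6 in tagged-CFAP20 and 1 and 0 in CFAP20-KO lay in the 0.4 kb bin, which is only 34% exonic. The bin of an alternative exon 1.35 kb from the start, 40.5% exonic, held 3 and 2 in tagged-CFAP20 and 0 and 0 in CFAP20-KO. At the annotated exon at 67.2 kb there were 0 in every library. Bins without an annotated exon held 228 and 202 overlaps in tagged-CFAP20 and 42 and 19 in CFAP20-KO. The median exon-bin share over the 34 genes was 46.4% in tagged-CFAP20 and 50.5% in CFAP20-KO, far above that of PRR16, whose measured stretch is almost all intron.

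The mean distance of PRR16 reads from the gene start was 46.5 and 41.4 kb in tagged-CFAP20 and 46.1 and 54.8 kb in CFAP20-KO. The groups overlapped, and the difference of -6.54 kb (SE 4.10) did not pass the test (limma adjusted p = 0.350 over 34 genes; exact permutation p = 0.667). The counting error of this difference was 4.90 kb (SE). Without CFAP20-KO replicate 1 the difference was -10.9 kb and was called (limma adjusted p = 0.0280), with the 19 overlaps of replicate 2 as the whole CFAP20-KO group. The median read lay at 53.0 and 43.2 kb in tagged-CFAP20 and at 50.2 and 49.0 kb in CFAP20-KO. Between the lower and upper quartile the reads ran over 14.0 to 71.0 kb and 12.6 to 64.4 kb in tagged-CFAP20, and over 17.2 to 68.4 kb and 28.4 to 81.0 kb in CFAP20-KO.

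PRR16 reads were spread thinly over many bins. In tagged-CFAP20, 183 and 164 bins were occupied, 68 of them in both libraries. In CFAP20-KO, 43 and 19 bins were occupied, and 2 of them in both libraries. Of the 60 bins with a CFAP20-KO read, 53.3% also had a tagged-CFAP20 read, and of the 279 bins with a tagged-CFAP20 read 11.5% had a CFAP20-KO read. In the 50 to 5 kb before the gene start there were 1 and 3 overlaps in tagged-CFAP20 and 0 and 0 in CFAP20-KO. The first overlaps of CFAP20-KO replicate 2 lay beyond 20 kb.

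RP11-446N19.1 had its reads farther from the start with the tagged protein. The mean distance was 65.5 and 66.8 kb in tagged-CFAP20 and 48.4 and 45.5 kb in CFAP20-KO. The groups did not overlap, and the difference of 19.2 kb (SE 1.41) was the largest shift away from the start among the 34 genes (limma adjusted p = 0.0126; exact permutation p = 0.333, the smallest possible). The call was lost without tagged-CFAP20 replicate 1 (19.8 kb, limma adjusted p = 0.176), without replicate 2 (18.5 kb, limma adjusted p = 0.195), and with genes of at least 5 overlaps (limma adjusted p = 0.0668). The SE of limma rests on the spread between libraries, whereas the counting error of the difference was 6.55 kb (SE). CFAP20-KO replicate 2 had only 10 overlaps on the gene, which is the limit for entering the test. RP11-446N19.1 thus entered it through the high CFAP20-KO share on which it was selected. Counting adjoining bins once, so that a read over several bins weighs as 1, gave 12.5 kb. The positions were 57.4 and 56.5 kb in tagged-CFAP20 and 44.4 and 44.5 kb in CFAP20-KO. This count also merges separate reads in adjoining bins, such as those at 78.4 to 78.8 kb in tagged-CFAP20 replicate 1.

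Shifts of this kind were not particular to RP11-446N19.1. limma called 20.6% of the 34 genes, 7 in all. The 34 genes entered through high CFAP20-KO shares, so percentages and ranks over them do not stand for all genes. The groups did not overlap in 26.5% of genes with reads farther from the start and in 32.4% with reads nearer to it in tagged-CFAP20. Differences ranged from -20.5 kb (STXBP5) to 19.2 kb (RP11-446N19.1), with a median of -0.24 kb. Next to RP11-446N19.1 stood PICALM, a clathrin assembly protein gene, at 16.7 kb, and PCM1, which encodes a centriolar satellite protein, at 10.0 kb. PRR16 was the 30th of 34 in this order.

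**Figure D3:**
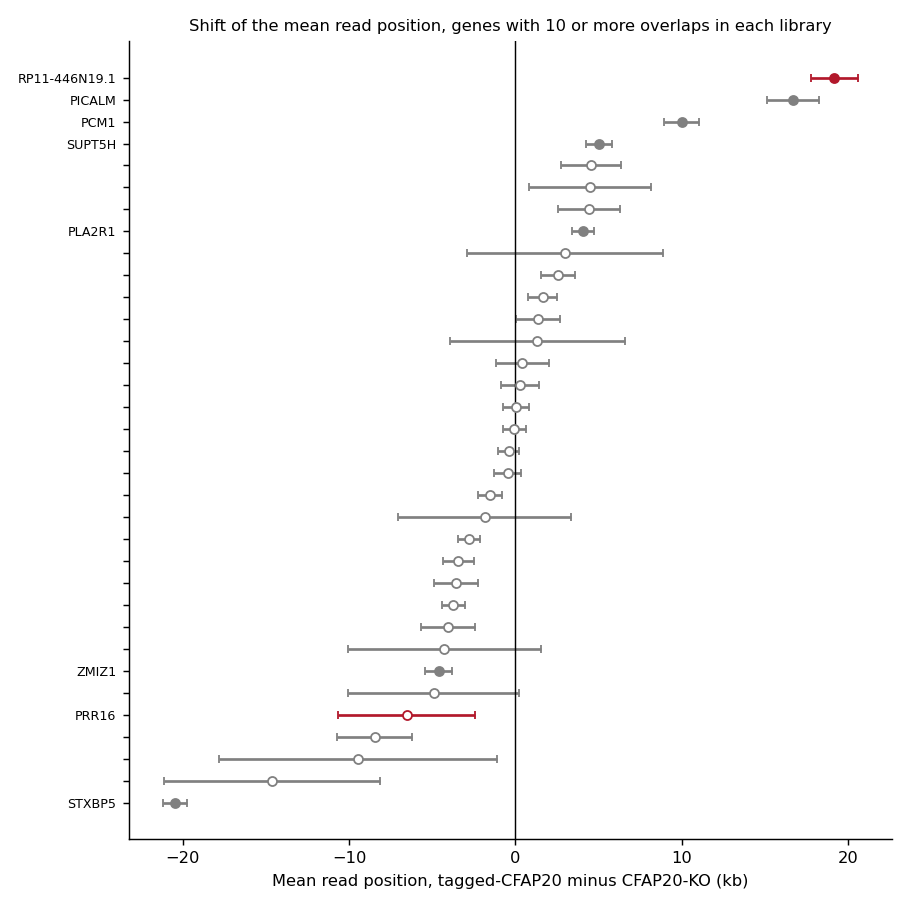
Difference in mean read position (x axis, kb, tagged-CFAP20 minus CFAP20-KO) for the 34 genes with at least 10 overlaps in every library; bars are the limma SE, filled points passed the adjusted p threshold of 0.05, and the selected genes are red. Names are given for the selected genes and the genes that passed. RP11-446N19.1 is at the top with 19.2 kb and PRR16 near the bottom with -6.54 kb.

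The difference lay in a pair of stretches of RP11-446N19.1. Between 60 and 90 kb the gene held 51 and 37 overlaps in tagged-CFAP20, 66.2% and 59.7% of its reads, and 9 and 2 in CFAP20-KO, 34.6% and 20.0%. The intervals were 52.3 to 78.4% and 43.95 to 74.1% in tagged-CFAP20, against 14.6 to 59.7% and 1.36 to 62.8% in CFAP20-KO, so they overlap. Between 30 and 50 kb it held 8 and 5 overlaps in tagged-CFAP20, 10.4% and 8.06%, and 10 and 5 in CFAP20-KO, 38.5% and 50%. CFAP20-KO replicate 1 thus had more overlaps in this stretch than either tagged-CFAP20 library, although its gene bodies held far fewer overlaps in all. Adjoining bins can share a read, so these are not counts of reads. Both stretches were chosen after the values were seen and carry no test.

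The median read of RP11-446N19.1 lay at 78.2 and 77.8 kb in tagged-CFAP20 and at 45.4 and 32 kb in CFAP20-KO, a difference of 39.3 kb that did not pass the test (limma adjusted p = 0.0811). Beyond 50 kb lay 57 and 47 overlaps in tagged-CFAP20, or 74.0% and 75.8%, and 11 and 3 in CFAP20-KO, or 42.3% and 30.0%. The groups did not overlap (exact permutation p = 0.333, the smallest possible). The 50 kb limit was not set in the design, and no value over the 34 genes is given for it. On mean position the groups did not overlap in 20 of the 34 genes.

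**Figure D4:**
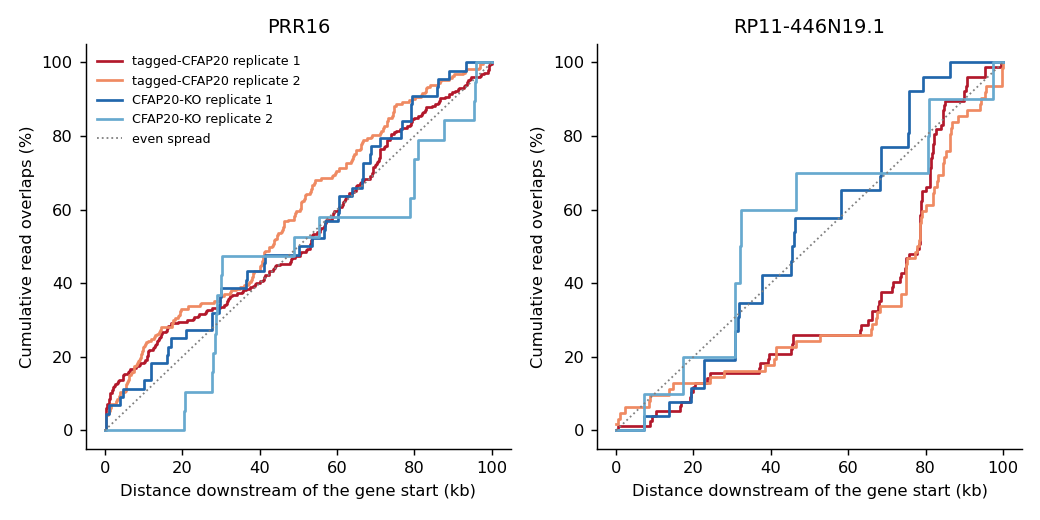
Cumulative percent of read overlaps (y axis) with distance from the gene start (x axis, kb) for PRR16 (left) and RP11-446N19.1 (right) in each library, with a dotted line for an even spread. In PRR16 the curve of CFAP20-KO replicate 2, from 19 overlaps, starts only beyond 20 kb, while the tagged-CFAP20 curves of RP11-446N19.1 reach 50% near 78 kb and the CFAP20-KO curves at 45.4 and 32 kb.

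No bin of RP11-446N19.1 held more than 3 overlaps in a library. The 78.4 kb bin printed above held 3 and 2 overlaps in tagged-CFAP20 and 0 and 0 in CFAP20-KO, and its neighbours at 78.6 and 78.8 kb held 3 and 1 each in tagged-CFAP20 and 0 and 0 in CFAP20-KO. The 30.6 kb bin printed above and the next at 30.8 kb held 0 and 0 in tagged-CFAP20 and 1 and 1 each in CFAP20-KO, as did the bin at 7.2 kb. These 3 bins were the only ones that both CFAP20-KO libraries shared, out of 24 and 10 occupied. In tagged-CFAP20 62 and 54 bins were occupied and 20 were shared. Of the 31 bins with a CFAP20-KO read 25.8% had a tagged-CFAP20 read, and of the 96 bins with a tagged-CFAP20 read 8.33% had a CFAP20-KO read.

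Repeated sequence was more frequent in RP11-446N19.1 than in PRR16. On average 77.3% of the 32-base words of a bin occurred once in the genome, against 90.1% in PRR16. Bins below 90% held 31 and 22 overlaps of RP11-446N19.1 in tagged-CFAP20, 40.3% and 35.5%, and 8 and 5 in CFAP20-KO, 30.8% and 50%, with overlapping groups. Without those bins the mean position was 60.9 and 65.7 kb in tagged-CFAP20 and 51.2 and 41.9 kb in CFAP20-KO, a difference of 16.8 kb, with as few as 5 overlaps in a library. In PRR16 such bins held 10.5% and 6.57% of the overlaps in tagged-CFAP20 and 9.09% and 26.3% in CFAP20-KO.

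The start and the exons of RP11-446N19.1 were nearly empty. The first 1 kb held 1 and 3 overlaps in tagged-CFAP20 and 0 and 0 in CFAP20-KO, or 1.30% and 4.84% against 0% and 0%. The counts of 0 allow shares of up to 17.9% and 40.1% in the CFAP20-KO libraries by the exact intervals, so no difference was detectable at this depth (exact permutation p = 0.333, the smallest possible). Bins with an annotated exon held 0 and 1 overlaps in tagged-CFAP20 and 0 and 0 in CFAP20-KO. The 1 overlap lay in a bin that touches the first exon, and the second exon, 33.8 kb from the start, had 0 in every library. Apart from that 1 overlap, the reads on this gene in both groups were reads of intron bins.

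Reads also lay before the start of RP11-446N19.1, within SLC38A4-AS1. The minus-strand lncRNA ENSG00000257496 (chr12:46384233-46494474) also reaches into the far end of the upstream stretch. The sources used here do not say whether coverage is stranded. From 50 to 5 kb upstream there were 147 and 144 overlaps in tagged-CFAP20 and 6 and 11 in CFAP20-KO, which is 191 and 232 for each 100 overlaps on the gene in tagged-CFAP20 and 23.1 and 110 in CFAP20-KO. As a share of all window overlaps this upstream stretch held 0.0224% and 0.0271% in tagged-CFAP20 and 0.0165% and 0.0712% in CFAP20-KO, with overlapping groups. In both tagged-CFAP20 libraries and in CFAP20-KO replicate 2, but not in CFAP20-KO replicate 1, the segment 30 to 20 kb upstream held the largest number of the 10-kb segments. It held 58 and 69 overlaps in tagged-CFAP20 and 3 and 9 in CFAP20-KO. There the bin 22.6 kb upstream held 3 and 7 overlaps in tagged-CFAP20 and 2 and 2 in CFAP20-KO, more over the 4 libraries together than any bin inside the gene. The annotated start of RP11-446N19.1 is thus not where the reads of this region begin, in contrast to PRR16, where the upstream stretch held at most 3 overlaps in a library. How much of the coverage assigned to RP11-446N19.1 belongs to SLC38A4-AS1 was not tested.

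**Figure D5:**
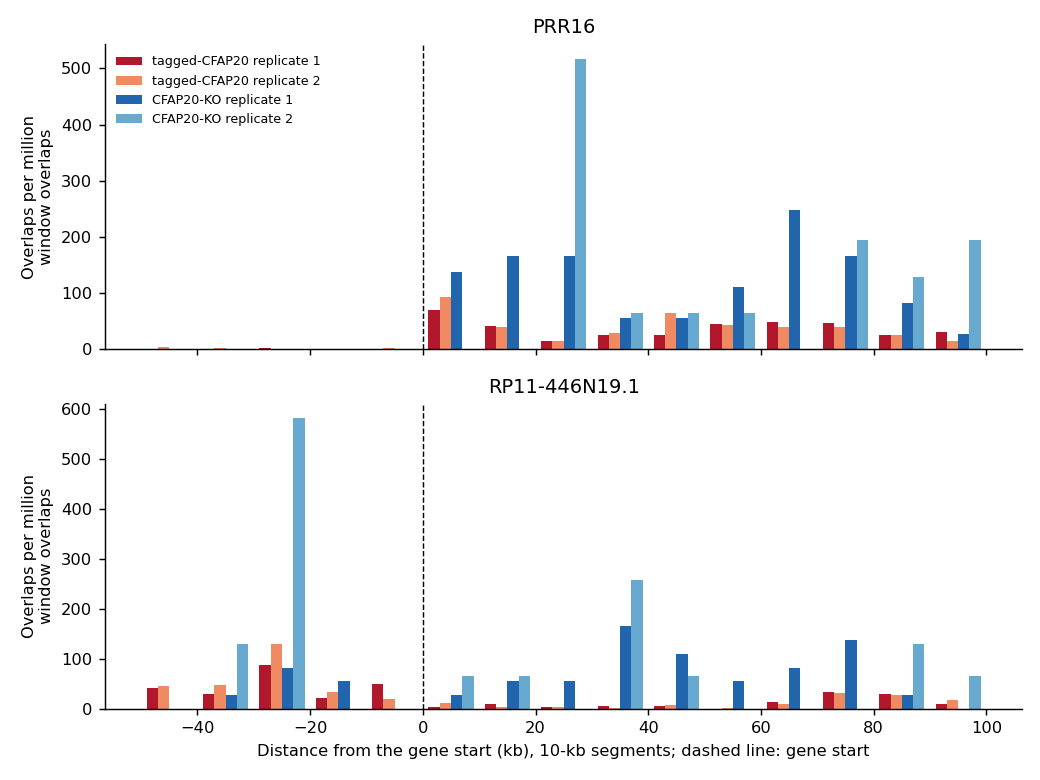
Read overlaps in 10-kb segments from 50 kb before to 100 kb after the gene start (x axis, kb, dashed line at the start), scaled to the window overlaps of each library (y axis), for PRR16 (top) and RP11-446N19.1 (bottom). Upstream of PRR16 there were at most 3 overlaps between 50 and 5 kb in a library, while upstream of RP11-446N19.1 the segment 30 to 20 kb before the start held 58 and 69 in tagged-CFAP20 and 3 and 9 in CFAP20-KO.

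PRR16 acts on translation and cell size, so genes of cell size control and mTOR signalling were read beside it. Of 25 such genes 4 were in the tables, all 4 were tested, and limma called 0 higher and 0 lower, against 37.6% and 0.0672% of all genes; at an unadjusted p under 0.05 it was 1 higher and 0 lower. Their median log2 change was 1.02, against 2.10 over all genes tested. All 4 had reads in at least 1 CFAP20-KO library, whereas 1589 of the genes called higher were at 0 in both. The medians are therefore not over like genes. RICTOR, a subunit of the mTORC2 kinase complex, had most signal, with 1812 and 1588 units in tagged-CFAP20 and 830 and 553.8 in CFAP20-KO (log2 change 1.31, SE 0.35, limma adjusted p = 0.0681). MYC, a growth-promoting transcription factor, had 976.9 and 794.2 units in tagged-CFAP20 and 249 and 1108 in CFAP20-KO. EIF4EBP2, a repressor of translation initiation, had 526.99 and 376.2 units in tagged-CFAP20 and 332 and 553.8 in CFAP20-KO. In signal the MYC and EIF4EBP2 groups overlapped, and the RICTOR groups did not. As a share of all gene overlaps the RICTOR groups overlapped too (0.0854% and 0.0845% in tagged-CFAP20, 0.109% and 0.0512% in CFAP20-KO). The CFAP20-KO values rest on few overlaps: 10 and 2 for RICTOR, 3 and 4 for MYC, and 4 and 2 for EIF4EBP2.

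Genes with a start within 200 kb of either member were read as neighbours. 2 of them were in the tables, both upstream of PRR16 on the minus strand and none beside RP11-446N19.1. They held 8 and 4 overlaps (CTC-552D5.1) and 1 and 3 overlaps (the nearer gene) in tagged-CFAP20. Neither had an overlap in CFAP20-KO, where PRR16 had 44 and 19. The CFAP20-KO libraries held far fewer gene overlaps in all. With counts this low in tagged-CFAP20, an equal share could also leave these neighbours without an overlap in CFAP20-KO. The lack of overlaps there therefore shows no difference between the groups.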

How the data were processed

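The authors deposited, for each library, coverage signal in 200-bp bins around each gene start; deposited columns of unit other hold gene position, strand and length, and 1 further column was not used. Per the submitters' processing notes, UMI-tools 1.0.0, Bowtie2 2.3.5, HOMER 4.8.2, R 4.0.5 and hg38 were used, without roles; the sources used here do not give duplicate removal or scaling. A table was tied to its library by the group and replicate in its name. The signal of a library came in whole steps (100% of values within 0.01), and was divided by the step to give read overlaps. Genes absent from a table were set to 0; all 225 that another window covers had 0 overlaps there. The design had foreseen counts; as the values were scaled coverage, limma was used. Bins were taken as centred on their label. Bin coordinates, the exonic part of a bin and the printed sequences rest on this. With bins starting at their label, the 0.4 kb bin of PRR16 would lie past the annotated end of the first exon.

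The members and the lists were chosen with earlier results of these data known. Named genes were the members, for each the 5 genes with the most similar centred log2 shares, the 3 cell size genes with most signal, and neighbours; genes with extreme shifts were named after their values were seen. A gene and sequences that the rules would have added are not reported here. limma 3.58.1 (R 4.3.3) was fitted over all genes, on log2(signal + 10) for genes above 0 in at least 2 libraries, and on the mean position for genes with at least 10 overlaps in every library, with Benjamini-Hochberg adjustment. Fits were tested on simulated data. Exons are from GENCODE 44 (9478 of 9667 identifiers matched).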

Additional observations from a re-analysis of the deposited data

How the results depend on the processing

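The lower share of both genes was present under each alternative. The pair was selected on this lower share, so this is a description and not a check of it. The count of genes called higher (1678) was 73 of 304 with a mean signal of at least 1000, and 0 to 3256 when 1 library was left out. The count called lower (3) was 32 with the same window total, 0 with a mean signal of at least 1000, 0 with the replicate block, and 0 to 418 when 1 library was left out. The count with a shifted mean position (7) was 1 with at least 5 overlaps, 1 with the median position, 3 with the replicate block, and 0 to 27 when 1 library was left out. The RP11-446N19.1 shift was 19.2 kb but not called with at least 5 overlaps, 39.3 kb and not called with the median, and 17.8 to 20.6 kb when 1 library was left out. It stayed called under the replicate block (limma adjusted p = 0.0450). The PRR16 shift ran from -10.9 to -2.20 kb when 1 library was left out. The RP11-446N19.1 difference in the first 1 kb share, 3.07 points, was -0.14 points over the first 10 kb. Its exon-bin difference ran from 0 to 1.61 points when 1 library was left out. The cause of these changes was not tested, and a fit without 1 library leaves 1 sample in a group, assumed to vary like the others.

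The labels do not say that the replicate numbers pair libraries, so the block rests on a shared number only. Deviations of same-numbered libraries from their group means had a correlation of 0.0052 over 4461 genes. With so few overlaps in the CFAP20-KO libraries this value cannot exclude a pairing. The limit of 20 overlaps in every library was not run, since 1 gene reached it. Depth limits the positions: CFAP20-KO replicate 2 held 19 overlaps on PRR16 and 10 on RP11-446N19.1. Alternatives on exon bins, unique sequence, adjoining bins, bin centring and the mean signal were chosen after seeing the data.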
